A study of Homo sapiens with 4 samples.

Results

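The iron uptake, storage and export genes described here are 10 members of the 64252 genes in the count table: TFRC, TFR2, STEAP3 and SLC11A2 (uptake), SLC25A37 (import into mitochondria), FTH1, FTL and NCOA4 (storage in ferritin and its turnover), SLC40A1 (export) and IREB2 (sensing). They were chosen by name for their known role in iron handling, and all 10 passed the count filter. RNA of human cells labelled NB4, a promyelocytic leukemia line carrying the PML-RARa fusion, was sequenced 24 h after addition of 8 μM dBET1 (2 libraries) or of its solvent DMSO (2 libraries). dBET1 is a degrader that brings bromodomain proteins of the BET family to the ubiquitin ligase adaptor CRBN. The comparison asks which transcripts differ once these chromatin readers are degraded. Both groups are of a single line, and nothing in the labels says whether the 2 libraries of a group came from separate cultures, so the p-values measure the spread between these libraries only.

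Total counts ran from 28019956 to 34685645 per library. The line name was set against defining markers. Of the neutrophil granule markers (AZU1, CTSG, ELANE, MPO and PRTN3), the 5 together had 15 to 17 counts in the DMSO libraries and 25 to 55 counts in the dBET1 libraries, with ELANE and CTSG at 0 counts in all 4. The 8 erythroid markers, among them GATA1, KLF1, TAL1, HBG2, HBE1, EPOR and ALAS2, summed to 4004 and 4754 CPM (counts scaled to the TMM-adjusted library size) with DMSO and to 2714 and 2734 CPM with dBET1. Of these 8, 6 were lower and 0 were higher after dBET1 by the test used below, beside 27.6% and 28% of all genes tested. The 5 monocyte and macrophage markers (CD14, CD163, CSF1R, FCGR3A and MARCO) summed to 18 and 21 counts in controls and to 50 and 64 counts in treated libraries, with MARCO at 0 in all 4, and the 5 lymphoid markers to at most 75 counts in a library. The granule markers that define the labelled line were thus nearly absent, while the erythroid markers summed to at least 2714 CPM in each library. These levels are those of erythroid rather than promyelocytic cells and go against the label. The identity of the line was not tested, and the line is given below as labelled.

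Cells take up iron mainly as transferrin, which binds transferrin receptor 1 (the product of TFRC) and enters endosomes, where STEAP3 reduces the iron and SLC11A2 (DMT1) carries it into the cytosol. Iron that is not used is held in ferritin, a shell of heavy (FTH1) and light (FTL) chains that NCOA4 delivers to lysosomes when iron is needed, and ferroportin (SLC40A1) is the known route of export. Iron regulatory proteins, one of them encoded by IREB2, bind a stem-loop called the iron-responsive element (IRE): in the 5' UTR of an mRNA they block translation, and in the 3' UTR of TFRC they protect the mRNA from decay. Erythroid cells, which make heme, use more iron than most, and TFR2 and SLC25A37 (mitoferrin 1) are well known from them.

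The IRE sequences are shown because the members with a match fall into mRNAs known to be controlled through their 5' end and through their 3' end. GENCODE 44 coding transcripts on hg38 were searched on the sense strand for CAGTGN flanked by 5 bases on each side that pair with each other (G-T pairs allowed) and preceded by C. In the 5' UTR, 3 members held a match, FTH1, FTL and SLC40A1, as did 0.203% of 19241 genes. In the 3' UTR, TFRC alone among the members held matches, 4 of them, while 0.738% of 19249 genes held at least 1. Each line gives 30 bases of the transcript strand from 5' to 3', with the loop of 6 bases in capitals.
FTH1 5' UTR, chr11:61967573-61967602, reverse strand: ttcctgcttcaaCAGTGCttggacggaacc
FTL 5' UTR, chr19:48965335-48965364, forward strand: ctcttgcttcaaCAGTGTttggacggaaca
SLC40A1 5' UTR, chr2:189580660-189580689, reverse strand: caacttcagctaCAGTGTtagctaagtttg
TFRC 3' UTR, chr3:196050978-196051007, reverse strand: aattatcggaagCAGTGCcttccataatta
TFRC 3' UTR, chr3:196050574-196050603, reverse strand: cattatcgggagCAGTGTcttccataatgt
TFRC 3' UTR, chr3:196050509-196050538, reverse strand: ctgtatcggagaCAGTGAtctccatatgtt
TFRC 3' UTR, chr3:196050462-196050491, reverse strand: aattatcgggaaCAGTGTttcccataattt
The matches of FTH1 and FTL began 39 and 33 bases from the start of 5' UTRs of 209 and 199 bases. In SLC40A1 the match began at base 104 of 326 and was held by 1 of 5 coding transcripts, against 7 of 8 for FTH1. The matches of TFRC lay from base 941 to base 1457 (their starts) of a 3' UTR of 2658 bases and were held by 10 of 11 coding transcripts. The counts are per gene, so transcripts with and without the element were not separated. A match is a description of letters, and the pattern allowed no unpaired base within the 5 paired bases on each side. Members without a match, SLC11A2 among them, may still carry an element of another form in either UTR.

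**Figure D1:**
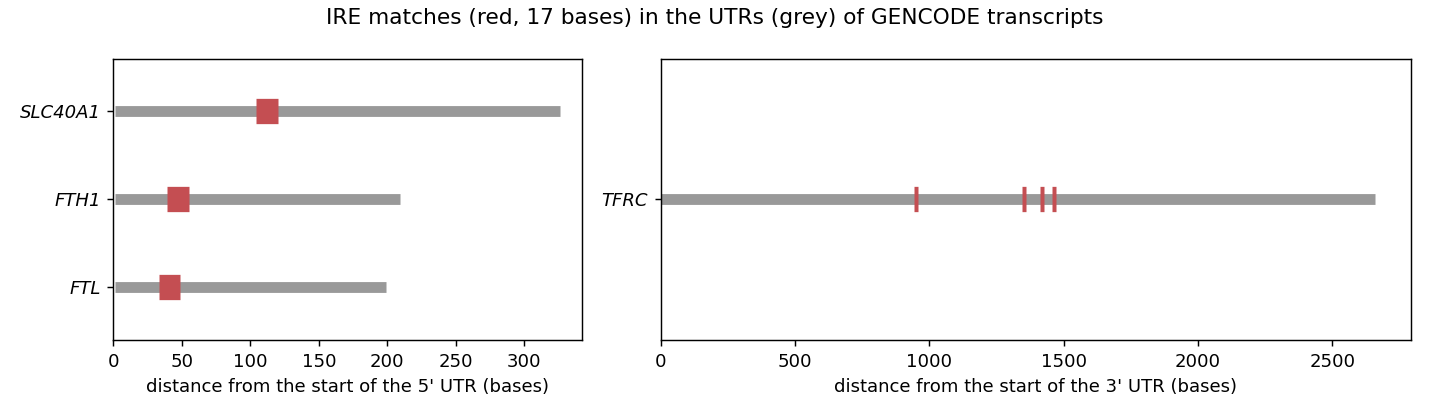
Position of the IRE matches (red, 17 bases each) in the UTRs (grey) of GENCODE canonical transcripts, in bases from the start of the UTR. The single matches of FTL, FTH1 and SLC40A1 begin at bases 33, 39 and 104 of the 5' UTR, and the 4 matches of TFRC begin at bases 941, 1345, 1410 and 1457 of the 3' UTR.

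After dBET1, all 4 genes of transferrin iron uptake and the exporter gene SLC40A1 fell, while both ferritin chain genes and NCOA4 rose. With the quasi-likelihood test of edgeR and a threshold of 0.05 on the adjusted p, 5 of 10 members were lower and 3 of 10 higher, and SLC25A37 and IREB2 did not pass. Among the 17971 genes tested, 27.6% were lower and 28% higher, 55.6% in either direction. Past a further limit of 1 on the log2 scale, taken from the study's methods, were 3 lower members (TFR2, STEAP3 and SLC40A1) and 1 higher member (NCOA4), beside 8.54% and 16.9% of genes tested. With total counts as the only scaling, 3573 of all genes were lower and 6703 higher, against 4953 and 5038 with TMM factors. The members are abundant genes, all in the 3 highest deciles of mean CPM. Of the 5392 genes in these deciles 53.5% were lower and 17.7% were higher, so that the count of lower members lies near the share of lower genes at their abundance. The median log2 fold change was -0.49 over the members, -0.31 over genes of those deciles and 0.048 over all genes tested. The 2 groups did not overlap in CPM for any of the 10 members, as for 79.3% of all genes tested. In these bulk samples fewer cells of a type and less RNA per cell cannot be told apart.

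**Figure D2:**
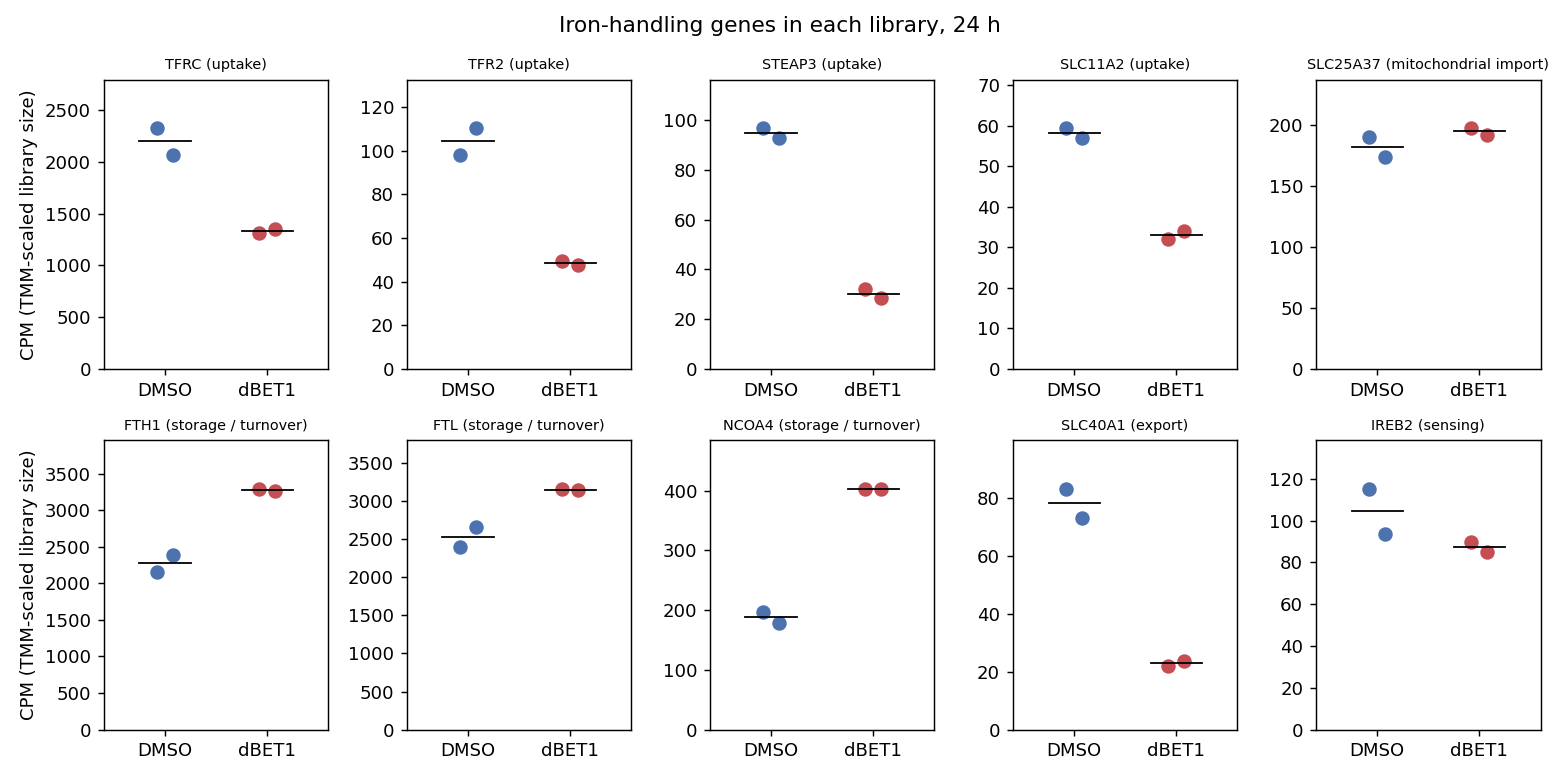
CPM of each member in the 2 DMSO (blue) and 2 dBET1 (red) libraries, with points for libraries, black lines for group means and a linear axis from 0. The uptake genes and SLC40A1 sit lower in both dBET1 libraries, and FTH1, FTL and NCOA4 sit higher in both.

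TFRC, the main receptor for transferrin (ENSG00000072274, chromosome 3, 196012511 to 196082153 of hg38, reverse strand), had 2326 and 2066 CPM with DMSO and 1316 and 1349 CPM with dBET1. Both treated libraries lay below both controls. The log2 fold change was -0.72 (SE 0.0776, edgeR quasi-likelihood test, adjusted p = 0.000188), a ratio of 0.607. TFRC was therefore short of the limit of 1 on the log2 scale, and 16.5% of genes tested had a lower log2 fold change.

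TFR2, the second transferrin receptor, which senses bound transferrin in erythroid and liver cells (ENSG00000106327, chromosome 7, 100620416 to 100642779, reverse strand), had 98.0 and 110.3 CPM with DMSO and 49.6 and 47.7 CPM with dBET1. The groups were well separated, and the fall was larger than the limit of 1, with a log2 fold change of -1.10 (SE 0.0924, edgeR quasi-likelihood test, adjusted p = 5.96e-05). STEAP3, the endosomal ferrireductase (ENSG00000115107, chromosome 2, 119223831 to 119265652, forward strand), had 97.0 and 92.9 CPM with DMSO and 32.1 and 28.5 CPM with dBET1. It was 3.13-fold lower, with a log2 fold change of -1.65 (SE 0.0958, edgeR quasi-likelihood test, adjusted p = 1.51e-05), and only 2.26% of genes tested had a lower value. STEAP3 shares 500 exonic bases with STEAP3-AS1 on the opposite strand, which had at most 21 counts in a library.

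SLC11A2, the endosomal iron transporter DMT1 (ENSG00000110911, chromosome 12, 50979401 to 51028566, reverse strand), had 59.5 and 57.1 CPM with DMSO and 32.0 and 33.9 CPM with dBET1. Its treated libraries lay below its controls by far more than either pair differed. The log2 fold change of -0.82 (SE 0.0910, edgeR quasi-likelihood test, adjusted p = 0.000212) was close to that of TFRC. Of the 8 erythroid marker genes 6 also fell, while TAL1 (log2 fold change 0.18) and EPOR (-0.35) did not pass. For comparison, 27.6% of all genes tested were lower, and 53.5% of those in the 3 highest deciles of mean CPM. The part of these markers in the fall of the uptake genes was not tested.

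SLC40A1, which encodes the exporter ferroportin (ENSG00000138449, chromosome 2, 189560590 to 189583758, reverse strand), had 83.2 and 73.2 CPM with DMSO and 22.0 and 23.8 CPM with dBET1. This was the lowest log2 fold change among the members, -1.77 (SE 0.105, edgeR quasi-likelihood test, adjusted p = 1.57e-05), a 3.42-fold fall. Among all genes tested, 1.71% had a lower value. The 3 members with an IRE match in the 5' UTR hence moved in opposite directions at the level of the gene counts, SLC40A1 down and both ferritin chains up.

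FTH1, the heavy chain that oxidizes iron on entry into the ferritin shell (ENSG00000167996, chromosome 11, 61959718 to 61967634, reverse strand), had 2159 and 2386 CPM with DMSO and 3293 and 3259 CPM with dBET1. Both treated libraries were above both controls. The log2 fold change was 0.53 (SE 0.0729, edgeR quasi-likelihood test, adjusted p = 0.000636), a ratio of 1.44. FTH1 has many processed copies in the genome, and 25 FTH1 pseudogenes in the count table summed to 192 to 245 counts in a library, 0.213% to 0.304% of the counts of FTH1. The pseudogenes with most counts were FTH1P8, with 48 to 58 counts in a library, and FTH1P2, with 28 to 37. On the opposite strand BEST1 shares 1267 exonic bases with FTH1. BEST1 had 2056 counts in DMSO replicate 1 and 24, 96 and 28 counts in the other 3 libraries, and with both genes summed the log2 fold change of FTH1 was 0.51.

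FTL, the light chain that helps to mineralize the stored iron (ENSG00000087086, chromosome 19, 48965309 to 48966879, forward strand), had 2396 and 2651 CPM with DMSO and 3159 and 3137 CPM with dBET1. The gap between the groups was smaller than for FTH1 but larger than the gap within either group. The log2 fold change was 0.32 (SE 0.0728, edgeR quasi-likelihood test, adjusted p = 0.00711). This call was lost when either dBET1 library was left out, with an adjusted p of 0.0682 (without replicate 1) and 0.0626 (without replicate 2) by edgeR, and the log2 fold change was 0.31 in both fits. In these fits the remaining dBET1 library was assumed to vary like the DMSO pair, which alone gave the spread, and the SE was 0.125 and 0.123. The 16 FTL pseudogenes, led by FTLP3 with 25 to 60 counts, summed to 48 to 95 counts in a library, at most 0.0992% of the counts of FTL. The summed counts of the monocyte and macrophage markers were also higher in both treated libraries, but stayed low. They were 18 and 21 with DMSO and 50 and 64 with dBET1, where FTL alone had 94798 and 95751 counts. Of these markers only CD14 and CSF1R were higher in both treated libraries. CD163 was counted only in dBET1 replicate 2, and FCGR3A only in dBET1 replicate 1. The summed granule markers rose as well, from 15 and 17 counts to 25 and 55. The part of either marker list in the values of FTH1 and FTL was not tested.

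NCOA4, the receptor that carries ferritin to autophagosomes (ENSG00000266412, chromosome 10, 46005088 to 46030623, reverse strand), had 197 and 179 CPM with DMSO and 403 and 402 CPM with dBET1. The treated libraries were nearly equal and stood at more than 2 times the controls. With a log2 fold change of 1.10 (SE 0.0766, edgeR quasi-likelihood test, adjusted p = 2.78e-05) it was the only member above the limit of 1 in the upward direction, and 82.2% of genes tested had a lower value. NCOA4 pseudogenes had at most 1 count in total in a library.

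SLC25A37, which brings iron into mitochondria for heme and iron-sulfur cluster synthesis (ENSG00000147454, chromosome 8), had 190.5 and 174 CPM with DMSO and 198 and 193 CPM with dBET1. The treated values were slightly higher, by less than the difference between the DMSO libraries. Its log2 fold change was 0.10 (SE 0.0772, edgeR quasi-likelihood test, adjusted p = 0.307). IREB2, the gene of iron regulatory protein 2 (ENSG00000136381, chromosome 15, 78437431 to 78501453, forward strand), had 115 and 93.7 CPM with DMSO and 89.7 and 84.8 CPM with dBET1. DMSO replicate 2 lay close to the treated libraries. The log2 fold change of -0.26 (SE 0.109, edgeR quasi-likelihood test, adjusted p = 0.0753) did not pass, but without DMSO replicate 2 it was -0.43 with an adjusted p of 0.000403 by edgeR, in a fit where the spread came from the dBET1 pair alone and the remaining DMSO library was assumed to vary like it.

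**Figure D3:**
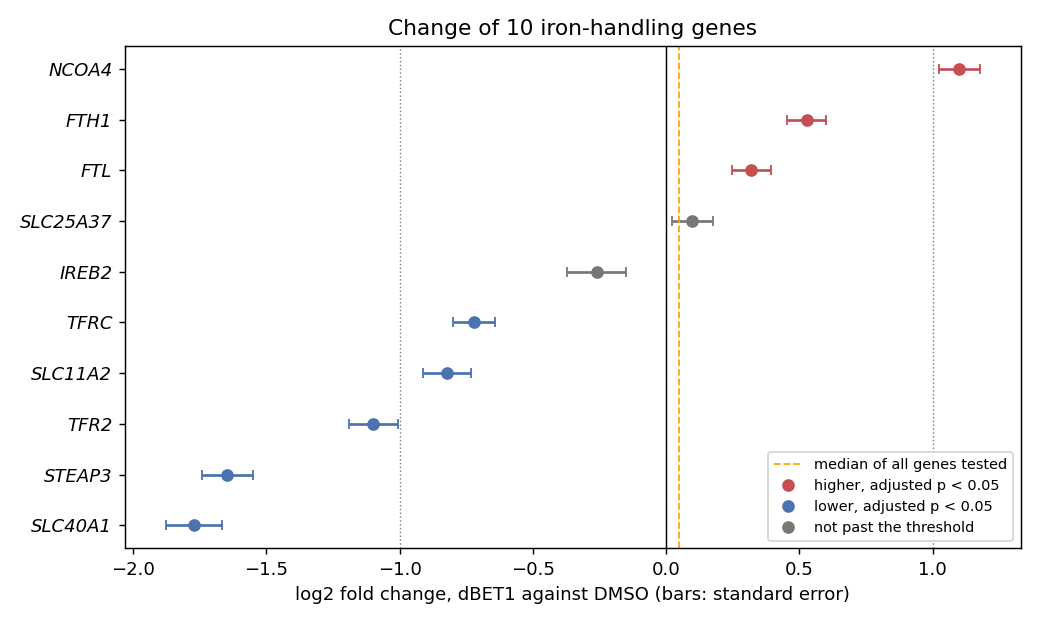
Log2 fold change of each member, dBET1 against DMSO, with bars of 1 standard error from edgeR's fit, dotted lines at -1 and 1 and a dashed line at the median of all genes tested (0.048). Values run from -1.77 for SLC40A1 to 1.10 for NCOA4, and SLC25A37 and IREB2 (grey) did not pass the threshold.

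To compare genes with each other, mean CPM was divided by the length of the canonical transcript in kilobases. On this scale FTL was the most abundant member with DMSO, at 2897 CPM per kb, followed by FTH1 at 1889 and TFRC at 438. These ranked 13, 33 and 179 among 16631 tested genes with a length. NCOA4 followed at 54.3 CPM per kb, SLC25A37 at 39.0 and TFR2 at 36.1, then SLC40A1 at 23.5, STEAP3 at 22.3, IREB2 at 16.5 and SLC11A2 at 14.1 CPM per kb. The libraries of SLC25A37 and TFR2 overlapped, as did those of SLC40A1 and STEAP3, and the other neighbours in this order did not. After dBET1 the first 6 places were held by the same genes in the same order, with FTL at 3614, FTH1 at 2723, TFRC at 266, NCOA4 at 116, SLC25A37 at 41.8 and TFR2 at 16.9 CPM per kb. SLC40A1 went from place 7 to place 10, at 6.87 CPM per kb, where its libraries overlapped with those of STEAP3 at 7.12. This order depended on the length used. With all annotated exons of a gene joined, NCOA4 stood above TFRC after dBET1, STEAP3 stood above TFR2 and SLC40A1 with DMSO, and SLC40A1 went from place 8 to place 9, above SLC11A2.

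The counts of a pair of members in the same library give ratios that need no scaling. For each count of FTH1, TFRC had 1.08 and 0.866 counts in the control libraries and 0.400 and 0.414 in the treated ones. Receptor and heavy chain transcripts were thus about equally counted in controls, and the treated libraries both lay below them, with a difference of -1.25 on the log2 scale. For SLC40A1 to FTH1 the ratio was 0.0385 and 0.0307 with DMSO and 0.00667 and 0.00731 with dBET1, a 4.92-fold fall. FTH1 to FTL was 0.901 and 0.900 with DMSO and 1.04 and 1.04 with dBET1. This ratio was the tightest of the 4 within groups (SD 0.000743 with DMSO and 0.00372 with dBET1 on the log2 scale, n = 2 per group) and was 0.21 higher after dBET1 on the log2 scale. That spread rests on the counts as assigned. The overlapping BEST1 had 2056 counts in DMSO replicate 1 and 24 in replicate 2, and the ratio was not computed with them added to FTH1. TFRC to TFR2 was 23.7 and 18.7 with DMSO and 26.5 and 28.3 with dBET1, a difference of 0.38 on the log2 scale beside an SD of 0.242 within the DMSO group. That difference was 0.55 without DMSO replicate 1 and 0.21 without DMSO replicate 2. In all 4 ratios the groups did not overlap. With 2 libraries against 2, the two-sided exact permutation test over libraries gave p = 0.333 for each of them, which is the smallest value it can give in this design.

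**Figure D4:**
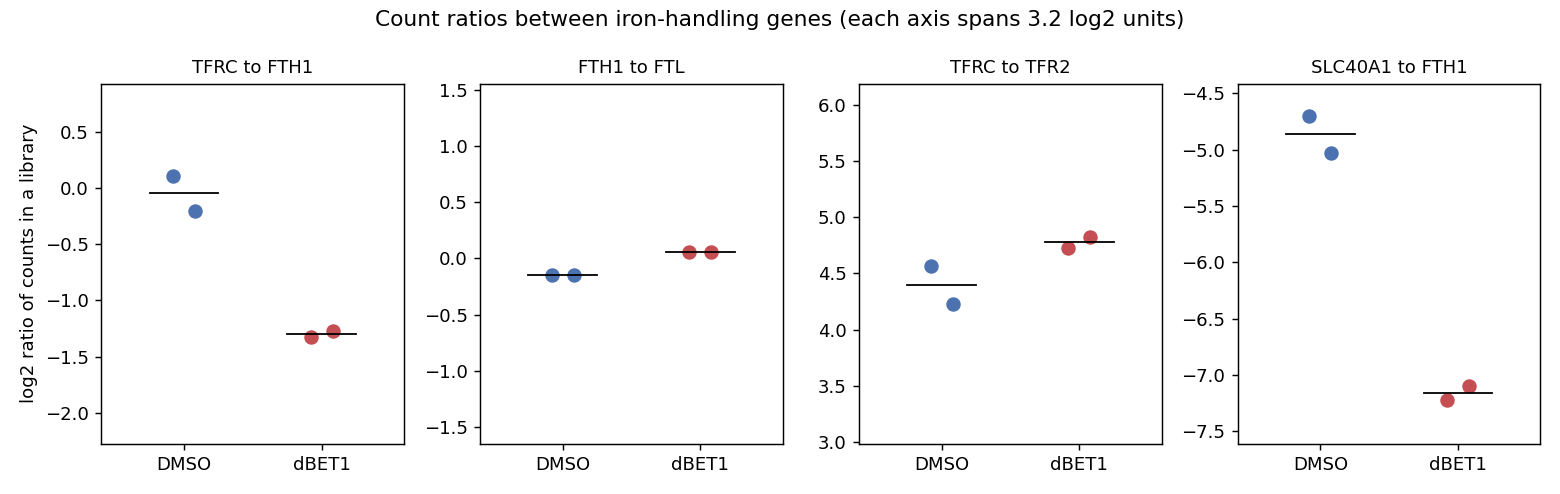
Log2 ratio of the counts of paired members in each library, with points for libraries and black lines for group means. Each axis spans the same range, and the TFRC to FTH1 and SLC40A1 to FTH1 ratios differ by -1.25 and -2.30 between groups, against 0.21 for FTH1 to FTL and 0.38 for TFRC to TFR2.

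Beyond the members, 87 other iron genes were listed from general knowledge, of which 74 passed the count filter. Of these, 38 (51.4%) were lower and 10 (13.5%) higher by the same edgeR test and threshold, beside 27.6% and 28% of all genes tested. Without dBET1 replicate 2, with the other dBET1 library assumed to vary like the DMSO pair, 5 were higher. Scaled by total counts alone, 29 were lower and 16 higher. Among the 38 other iron genes in the 3 highest deciles of abundance, 65.8% were lower, beside 53.5% of all genes in these deciles, and 13.2% were higher, beside 17.7%. The median log2 fold change over all 74 was -0.38.

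In the list of other uptake and reduction genes, 6 of 13 tested were lower (46.2%) and 2 were higher (15.4%). These shares were 27.6% and 28% over all genes tested. SLC39A14, a carrier of iron not bound to transferrin, fell to 36.7 ± 0.260 CPM with dBET1, against 91.4 ± 8.33 CPM with DMSO (SD, n = 2 per group). The other 3 lower genes with the smallest p were MON1A, with a log2 fold change of -0.75, SNX3, which returns transferrin receptor to the surface, with -0.54, and PICALM, a clathrin adaptor, with -0.47. HFE, whose product binds transferrin receptor 1 and hinders its uptake of transferrin, rose to 8.69 ± 0.338 CPM with dBET1, against 2.77 ± 0.0124 CPM with DMSO (SD, n = 2 per group), and MELTF rose by 0.64 on the log2 scale. HAMP, the gene of the hormone hepcidin that acts on ferroportin, was below the filter with 3 to 8 counts in a library.

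Storage, chaperone and ferritin turnover genes showed 1 lower (10%) and 3 higher (30%) of 10 tested, with a median log2 fold change of 0.018. Over all genes tested 27.6% were lower and 28% higher, with a median of 0.048. The share of higher genes and the median thus lay near those of all genes, while the share of lower genes was smaller. In the 3 highest deciles of mean CPM, 53.5% of genes were lower and 17.7% higher, with a median of -0.31. The genes of this list were not matched to others by abundance. PCBP2, a chaperone that hands iron to ferritin, fell to 606 ± 1.73 CPM with dBET1, against 834 ± 22.0 CPM with DMSO (SD, n = 2 per group), whereas the related PCBP1 had a log2 fold change of -0.13 and did not pass. HERC2, the ubiquitin ligase that acts on NCOA4, rose by 0.46, TAX1BP1, an autophagy receptor for ferritin, by 0.46, and the lysosomal proton pump gene ATP6V1A by 0.28 on the log2 scale. These were smaller rises than that of NCOA4. The mitochondrial ferritin gene FTMT was at 0 counts in all 4 libraries.

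Export and heme traffic genes were lower in 7 (53.8%) and higher in 3 (23.1%) of 13 tested, beside 27.6% and 28% of all genes. BLVRB and BLVRA, the biliverdin reductases that follow heme breakdown, had log2 fold changes of -1.04 and -0.69, and BLVRB fell to 126 ± 7.30 CPM with dBET1, against 258 ± 36.0 CPM with DMSO (SD, n = 2 per group). PGRMC2 and SLC48A1, which act in heme traffic, had log2 fold changes of -0.67 and -0.54. ABCB6, a porphyrin transporter, rose by 0.57. The other 2 that rose had very few counts in controls and passed the count filter only through the dBET1 libraries where they were high, so they add no support to the count of higher genes. HEPHL1, a ferroxidase, had 0 counts in both DMSO libraries and 35 and 19 with dBET1. Its mean CPM with dBET1 was 9.0 times that of a floor of 3 counts per DMSO library. HPX, which encodes the heme carrier hemopexin, had 4 and 2 counts with DMSO and 21 and 43 with dBET1.

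Of 30 genes of mitochondrial iron and iron-sulfur cluster assembly, 20 (66.7%) were lower and 0 were higher, with a median log2 fold change of -0.48. Over all genes tested 27.6% were lower and 28% higher, and in the highest decile of abundance 62.1% were lower and 13.6% higher. The mitochondrial chaperone gene HSPA9 fell to 305 ± 0.675 CPM with dBET1, against 896 ± 43.2 CPM with DMSO (SD, n = 2 per group). BOLA3, CIAO2A and GLRX3, which help to deliver clusters to their proteins, had log2 fold changes of -1.35, -1.33 and -1.26. SLC25A28, the paralog of SLC25A37, had a log2 fold change of -0.38 and, like it, did not pass. Among sensing genes and other mRNAs with a known IRE, 4 of 8 tested were lower (50%) and 2 were higher (25%). These shares were 27.6% and 28% over all genes tested, and 53.5% and 17.7% in the 3 highest deciles of mean CPM. FBXL5, the iron-sensing adaptor that marks IREB2 protein for degradation, rose to 37.3 ± 1.55 CPM with dBET1, against 24.4 ± 2.13 CPM with DMSO (SD, n = 2 per group), and ACO1, which encodes the other iron regulatory protein, did not pass at -0.24. ALAS2, the first enzyme of erythroid heme synthesis and also 1 of the erythroid markers above, fell to 41.1 ± 0.564 CPM with dBET1, against 79.1 ± 4.39 CPM with DMSO (SD, n = 2 per group). CDC14A and CDC42BPA were lower, with log2 fold changes of -0.76 and -0.36, and EPAS1 rose by 0.35.

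**Figure D5:**
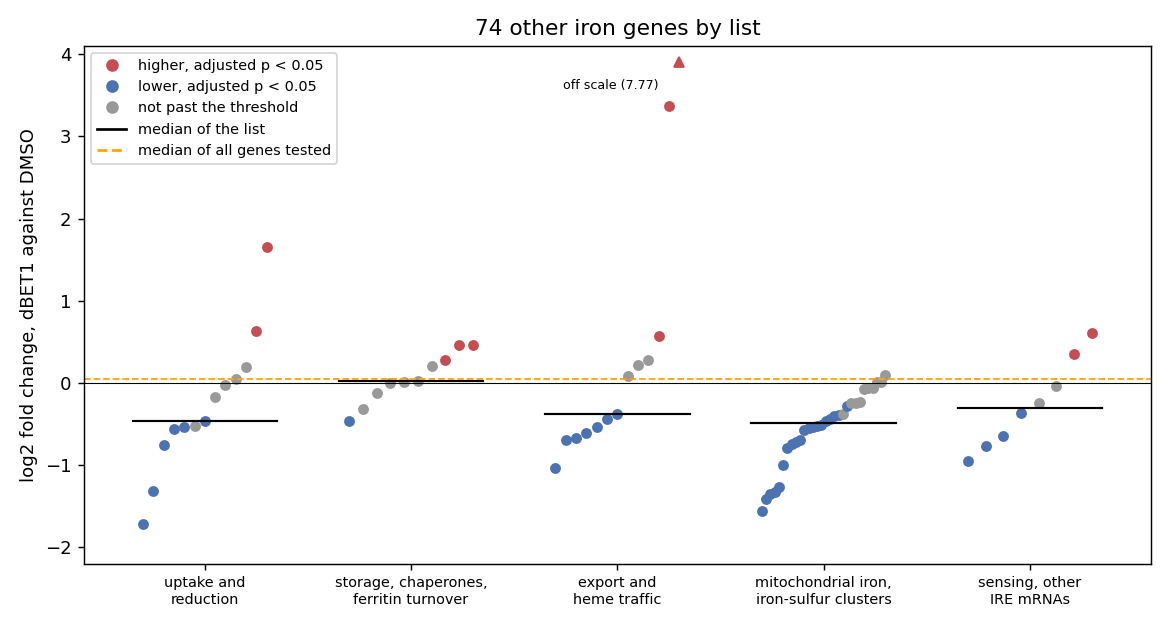
Log2 fold change, dBET1 against DMSO, of 74 other iron genes in 5 lists, with 1 point per gene, black lines at list medians and a dashed line at the median of all genes tested. Medians are -0.47 for uptake, 0.018 for storage and -0.38 for export and heme traffic. They are -0.48 for mitochondrial iron and iron-sulfur clusters and -0.30 for sensing, and HEPHL1 lies off the scale.

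Promoter sequences of RefSeq (GRCh38.p14, 250 bases before to 50 bases after a start) were held for 7 of the 10 members: FTL, IREB2, NCOA4, SLC11A2, SLC40A1, STEAP3 and TFRC. They were searched on both strands for CACGTG, the E-box bound by MYC and MAX, TGACNNNGC, the core of the antioxidant response element, and AGATAA, a motif of the erythroid factor GATA1. CACGTG was in 0 of the 7, and in 8.77% of all genes with an entry. TGACNNNGC was in a promoter of NCOA4 only, 23 bases after the start, and in 16.1% of all genes. AGATAA was in a promoter of SLC11A2 only, beginning 64 bases before the start, and in 12.4% of all genes. The absence of these letters from such short windows says nothing of binding elsewhere in the gene.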

How the data were processed

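RNA-seq was performed on 2 dBET1 and 2 DMSO libraries, read as paired ends. Per the submitters' processing notes and the study's methods, the authors aligned reads to hg38 with HISAT2 2.2.0 and quantified transcripts with StringTie. The deposited values are raw counts for each Ensembl gene, in whole numbers. How abundance became counts, and whether strand was used, is not given in the sources used here, so overlapping genes and near-identical copies can share counts.

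Symbols and positions came from GENCODE 44 (hg38), which held 56105 of 64252 identifiers. Counts were analysed with edgeR 4.0.16 in R 4.3.3: filterByExpr, TMM factors, quasi-likelihood test with the group alone, and Benjamini-Hochberg adjustment over 17971 genes. The study used DESeq2 with an adjusted p under 0.05 and a log2 limit of 1. SE is the absolute log2 fold change over the root of the F statistic. No column was left out (0), and 0 rows lacked a gene. A floor of 3 counts was used where controls were at 0. Replicates differed by more than counting error (chi-square per degree of freedom 23.6 for DMSO and 8.14 for dBET1), and SDs rest on 2 values. The steps were tested on simulated data with a biological coefficient of variation of 0.123. They called 31.2% of 1.5-fold and 95.2% of 2-fold changes, so a gene not called may still differ by a small fold. Each simulated data set held only 200 changed genes, whereas 55.6% of genes tested were called in the data. The shares called in simulation thus need not hold for the data. Alternatives were DESeq2 1.42.0, its size factors, total counts, other filters, the replicate block, each library left out, counts divided by 2 in case reads were counted 2 times, and pseudogenes summed.

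Members and lists were chosen with earlier results of these data known. Named genes are the members, the 4 with the smallest p in each direction of each list, and the 3 ferritin pseudogenes with most counts (FTH1P8, FTLP3 and FTH1P2). STEAP3-AS1 and BEST1 were named as overlapping genes, and HAMP, FTMT, PCBP1, SLC25A28 and ACO1 after their values were seen. Of the genes that this rule or the marker lists name, 2 are not reported here by name.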

Additional observations from a re-analysis of the deposited data

How the results depend on the processing

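The directions of all 10 members and of the 4 ratios were the same under every alternative run, each library left out included. The 5 lower members and NCOA4 and FTH1 kept their calls at an adjusted p under 0.05 throughout. FTL had a log2 fold change of 0.22 to 0.36 when each library was left out in turn and lost its call without either dBET1 library. IREB2 ran from -0.43 to -0.13 with a library left out, was -0.053 with total counts, and was called only without DMSO replicate 2. A library left alone in its group was assumed to vary like the other pair. SLC25A37 was called only with total counts, at 0.31, a scaling that moved the median of all genes from 0.048 to 0.26. With the limit of 1 on the log2 scale, 3 members were lower and 1 was higher, and of 74 other iron genes 9 were lower and 3 higher. Over all genes tested, 8.54% were lower and 16.9% higher past this limit. Among the 3 higher are HEPHL1 and HPX, which passed the count filter only through the dBET1 libraries. Higher other iron genes numbered 16 with total counts, 6 with no count filter and 5 to 10 when each library was left out, the fewest without dBET1 replicate 2. Over all genes, 5038 were higher, and 3356 without dBET1 replicate 2. Replicate numbers are shared between groups by number only (correlation of deviations -0.0075 over 17971 genes). With the replicate block, 5 members were lower and 3 higher, and 38 other iron genes were lower and 10 higher, as without it. Summing pseudogenes moved FTH1 from 0.528 to 0.527, and with BEST1 added, an alternative chosen after seeing the data, it was 0.508.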

Other observations

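The IRE search also returned genes outside the iron pathway. Apart from the members, 36 genes had a match in the 5' UTR, of which 24 were tested, with 8 higher and 7 lower after dBET1 (edgeR, same threshold as above) and a median log2 fold change of 0.072. In the 3' UTR, 141 other genes had a match, of which 109 were tested, with 32 higher, 31 lower and a median of 0.11. Over all genes tested 28% were higher and 27.6% lower, and the median was 0.048.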
